A study of Mus musculus with 8 samples.

Results

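The genes described here are those of the stem cells at the crypt base, measured in mouse ileum. They are the 10 genes Lgr5, Ascl2, Olfm4, Axin2, Smoc2, Rnf43, Znrf3, Sox9, Lrig1 and Tnfrsf19, chosen by name from the 35715 gene names of the array design. They have 14 probes of 60 bases among 55681, with 1 probe for 6 genes and 2 probes each for Ascl2, Axin2, Lrig1 and Tnfrsf19. RNA of female mice was hybridised in 1 colour to 8 Agilent mouse arrays of 1 slide, 4 per group. Both groups carry the strain label Rosa26rtTA/+, Hprt Myc-Tnk1tg, that is, rtTA (a transcription activator that works when doxycycline is present) at Rosa26 and a Myc-tagged gene of the tyrosine kinase TNK1 at Hprt. One group was injected in the abdomen with doxycycline at 50 µg per g in 100 µl and the other with 100 µl of 0.9% NaCl, for 24 hours. The saline group is also called WT in its titles and source names, against its strain label, and doxycycline given to mice lacking the transgene was not analysed here. Age, the cells that express rtTA, and whether every array holds a separate mouse are not given in the sources used here, so the spread behind each p may be technical. The comparison asks how ileal genes differ after doxycycline, which is meant to switch on TNK1.

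Stem cells at the base of intestinal crypts divide throughout life and renew the epithelium. They depend on Wnt ligands, which stabilise beta-catenin so that TCF factors switch on target genes, and on R-spondins, which bind LGR receptors and thereby keep the ubiquitin ligases RNF43 and ZNRF3 from removing Wnt receptors. Several genes of these cells are themselves Wnt targets, among them the receptor gene Lgr5, the transcription factor gene Ascl2 and the feedback inhibitor gene Axin2.

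Levels are log2 of the scanner software's processed intensity, with the 75th percentile of each array set to 0, and are compared between groups for the same probe. The ileum label was checked on Fabp6, a bile acid binding protein of this tissue, which stood at 9.45 ± 0.21 with saline and 9.25 ± 0.26 with doxycycline (SD, n = 4 each). Of 9 stomach and colon markers, 5 did not pass the filter on dim probes and 4 did. Over the array, 21362 of 35715 gene names passed, so this count says little about the label. Probes well above background made up 54.7% to 57.0% of all on the doxycycline arrays and 39.6% to 43.1% on the saline arrays, whereas the probes of Lgr5, Ascl2, Olfm4, Axin2 and Sox9 were well above it on all 8. The doxycycline and saline arrays lay in separate rows of the slide, and row and treatment cannot be told apart. Saline 4 stood apart from the other saline arrays in summed smooth muscle markers (1103 against 494 to 768) and enterocyte markers (711 against 1173 to 1225). Saline 2 stood apart from the other saline arrays in summed leukocyte markers (155 against 52.9 to 83.1). A gene was tested if 4 or more of the 8 arrays had its probe well above background, and called at a limma adjusted p under 0.05 over the 21362 genes tested.

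With doxycycline, 5 of the 10 genes fell and 0 rose in limma. Over all genes tested, 7.90% were called lower and 5.94% higher, 13.8% in either direction. At an unadjusted p under 0.05, 8 of the 10 were lower and 0 higher, against 16.8% and 14.6% of all genes. The genes that fell were Ascl2, Olfm4, Axin2, Lgr5 and Sox9, by 2.43-fold to 5.27-fold. Smoc2, Rnf43 and Tnfrsf19 had lower means and did not pass, and Znrf3 and Lrig1 had no lower mean. The groups did not overlap for 7 of the 10 genes, all lower with doxycycline, against 13.0% of all genes lower and 8.83% higher without overlap (21.9% in either direction). The median log2 difference of the 10 genes was -1.01, against 0.02 for all genes tested. In whole tissue, fewer cells of a type and less RNA per cell cannot be told apart.

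**Figure D1:**
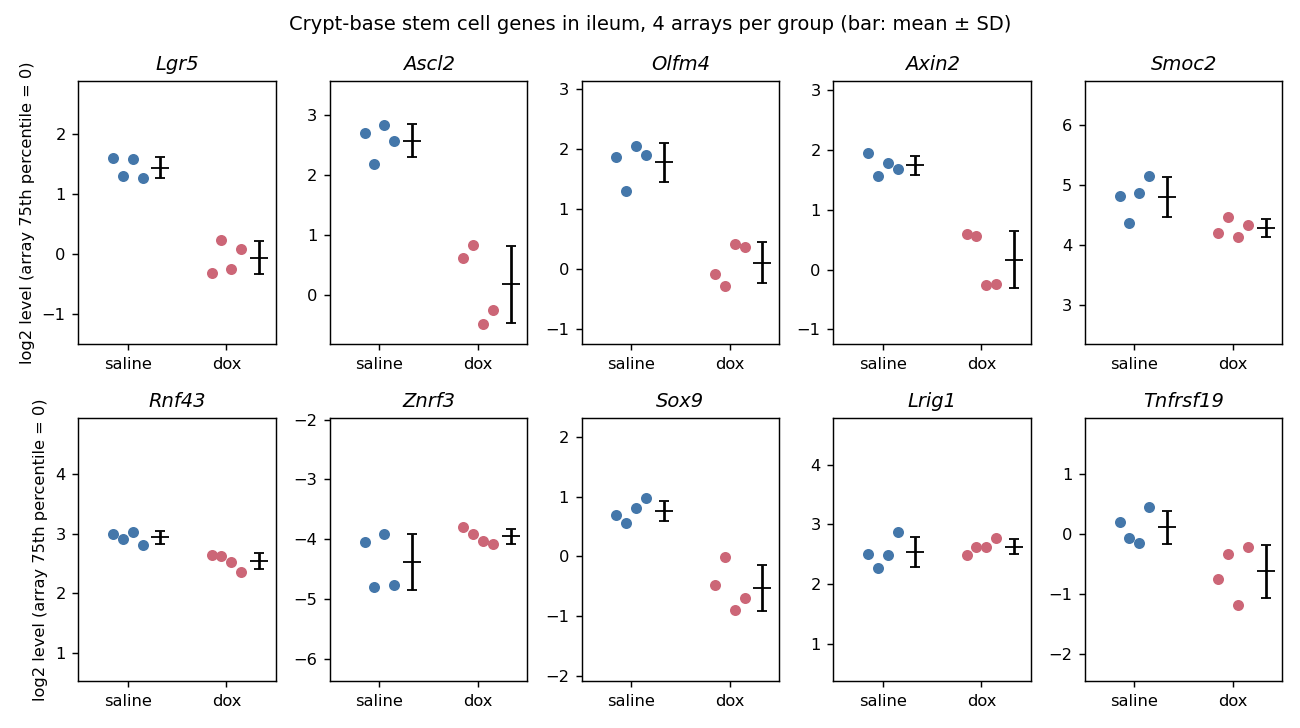
Log2 levels of the 10 genes on each array (vertical axis, array 75th percentile at 0, the same span in every panel), saline in blue and doxycycline in red, with mean ± SD of 4 arrays in black. The groups stand apart for Lgr5, Ascl2, Olfm4, Axin2 and Sox9, and by a smaller step for Rnf43 and Tnfrsf19. The saline values of Znrf3 were not well above background.

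Because 5 of the genes fell with doxycycline, the promoters available for the 10 genes were searched for shared letters. RefSeq (build GRCm38.p6) gave promoters for 6 of the 10 genes, 8 in all: Ascl2, Olfm4, Axin2, Lrig1, and 2 each for Rnf43 and Tnfrsf19. Lgr5 and Sox9, which also fell, had no promoter to search, nor had Smoc2 and Znrf3. The 250 bases before the start were searched on both strands for CTTTGAT and CTTTGAA, cores bound by TCF factors, and for CAGCTG, an E-box of the kind bound by basic helix-loop-helix factors; the matches found do not overlap. Of 32851 promoters, 3.21% held CTTTGAT, 4.46% CTTTGAA and 13.0% CAGCTG. The Ascl2, Olfm4, Axin2, Rnf43 and Lrig1 windows held none of the 3, and 1 Tnfrsf19 window held CTTTGAT and CAGCTG. The windows of 3 of the genes that fell and the Tnfrsf19 window with matches are shown for comparison, 5′ to 3′ along the gene, with matches in capitals (CTTTGAT lies on the reverse strand, so its reverse complement is read here).
Ascl2 (chr7:142969265-142969514, - strand): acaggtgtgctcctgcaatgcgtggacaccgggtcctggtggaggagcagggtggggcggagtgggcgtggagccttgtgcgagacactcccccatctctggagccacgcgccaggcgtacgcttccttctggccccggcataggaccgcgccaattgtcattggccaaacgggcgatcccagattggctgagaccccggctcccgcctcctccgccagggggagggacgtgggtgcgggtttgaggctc
Olfm4 (chr14:80000052-80000301, + strand): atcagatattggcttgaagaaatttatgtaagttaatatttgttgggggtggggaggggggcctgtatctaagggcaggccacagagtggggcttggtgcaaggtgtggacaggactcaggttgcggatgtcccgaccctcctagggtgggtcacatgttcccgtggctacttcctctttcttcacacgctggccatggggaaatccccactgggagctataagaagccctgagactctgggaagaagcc
Axin2 (chr11:108920099-108920348, + strand): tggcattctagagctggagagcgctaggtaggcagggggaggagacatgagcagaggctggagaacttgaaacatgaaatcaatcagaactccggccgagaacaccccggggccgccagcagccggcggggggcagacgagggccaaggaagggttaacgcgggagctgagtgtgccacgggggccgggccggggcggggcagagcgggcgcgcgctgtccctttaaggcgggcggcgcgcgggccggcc
Tnfrsf19 (chr14:61037988-61038237, - strand): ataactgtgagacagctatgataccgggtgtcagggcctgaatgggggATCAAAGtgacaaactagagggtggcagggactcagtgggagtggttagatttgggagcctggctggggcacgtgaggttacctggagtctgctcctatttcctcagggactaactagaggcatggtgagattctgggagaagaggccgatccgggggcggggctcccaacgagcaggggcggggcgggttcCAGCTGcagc
The Ascl2 and Axin2 windows were 67.6% and 69.2% G and C and the Olfm4 window 54.0%, against a median of 52.4% over all promoters. These matches describe letters only, and their absence says nothing of sites outside the windows.

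Lgr5 encodes the R-spondin receptor that marks the dividing stem cells of the crypt base. Its probe lies at chr10:114887403-114887462 (mm9, the build of the array's annotation, used for all probe positions). Lgr5 read 1.60, 1.31, 1.60 and 1.27 on saline arrays 1 to 4, and -0.32, 0.24, -0.25 and 0.09 on doxycycline arrays 1 to 4. All doxycycline values lay below all saline values, and the spread within each group was small beside the gap. The mean went from 1.44 ± 0.18 to -0.06 ± 0.27 (SD, n = 4), a 2.83-fold fall (95% interval 2.14 to 3.76, log2 SE 0.18, limma adjusted p = 0.00139). The exact two-sided permutation p was 0.0286, the smallest that 4 against 4 arrays allow, as it was for the other genes whose groups did not overlap.

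Rnf43 and Znrf3 encode the related membrane ubiquitin ligases that remove Wnt receptors. Rnf43 read 2.99, 2.91, 3.04 and 2.80 on saline arrays 1 to 4, and 2.64, 2.63, 2.53 and 2.36 on doxycycline arrays 1 to 4. These groups did not overlap but lay close together. The log2 difference was -0.40 (SE 0.14, 95% interval -0.71 to -0.08, exact permutation p = 0.0286, limma adjusted p = 0.0916) at chr11:87548958-87549017. It passed with a common floor for dim values (adjusted p = 0.0269) and with array weights (adjusted p = 0.0179). Znrf3 read -4.05, -4.80, -3.91 and -4.77 on saline arrays 1 to 4, and -3.80, -3.92, -4.03 and -4.08 on doxycycline arrays 1 to 4. Its probe (chr11:5180918-5180977) was well above background on every doxycycline array and 0 of 4 saline arrays, and the lowest signals well above background there, -3.07 to -2.57, exceeded its doxycycline mean of -3.95. No fold is therefore given for Znrf3 (limma adjusted p = 0.241).

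Axin2 encodes a scaffold of the complex that destroys beta-catenin and is a widely used readout of Wnt signalling. Axin2 read 1.94, 1.56, 1.78 and 1.69 on saline arrays 1 to 4, and 0.59, 0.56, -0.27 and -0.24 on doxycycline arrays 1 to 4. Doxycycline 3 and 4 were lower than doxycycline 1 and 2, and the highest doxycycline value stayed below the lowest saline value. The mean went from 1.74 ± 0.16 to 0.16 ± 0.48, a 2.99-fold fall (95% interval 2.05 to 4.35, log2 SE 0.24, limma adjusted p = 0.00425), at chr11:108812034-108812093. The other Axin2 probe (chr11:108803927-108803986) was also well above background on all 8 arrays. It gave a log2 difference of -1.45 (SE 0.41, limma adjusted p = 0.0485 over all kept probes), although its groups overlapped. Its values on doxycycline 2, 3 and 4, from -4.08 to -3.56, were below the common floor for dim values, -2.57. Part of this difference therefore lies under that floor.

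Ascl2 encodes a basic helix-loop-helix factor that Wnt signalling switches on and that is needed to keep stem cell identity. Ascl2 read 2.70, 2.19, 2.83 and 2.57 on saline arrays 1 to 4, and 0.61, 0.84, -0.48 and -0.26 on doxycycline arrays 1 to 4. It had the lowest log2 difference of the 10 genes, with doxycycline 3 and 4 again below doxycycline 1 and 2. The mean went from 2.57 ± 0.28 to 0.18 ± 0.65, a 5.27-fold fall (95% interval 3.23 to 8.61, log2 SE 0.31, limma adjusted p = 0.00212), at chr7:150152734-150152793. Of all genes tested, 0.398% had a lower log2 difference. A second probe under this name (chr7:150176638-150176697), assigned to a predicted transcript, was not well above background on any of the 8 arrays and was not tested.

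Sox9 encodes a transcription factor of crypt stem cells and Paneth cells. Sox9 read 0.70, 0.56, 0.81 and 0.97 on saline arrays 1 to 4, and -0.49, 0.00, -0.90 and -0.70 on doxycycline arrays 1 to 4. Its probe (chr11:112648809-112648868) is printed in 10 spots, which were averaged, and the groups did not overlap. The mean went from 0.76 ± 0.17 to -0.52 ± 0.39, a 2.43-fold fall (95% interval 1.75 to 3.39, log2 SE 0.21, limma adjusted p = 0.00624).

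Olfm4 encodes a secreted glycoprotein abundant in crypt-base cells. Olfm4 read 1.87, 1.30, 2.05 and 1.90 on saline arrays 1 to 4, and -0.09, -0.29, 0.42 and 0.36 on doxycycline arrays 1 to 4. Here doxycycline 1 and 2 were the lowest, the reverse of the order in Ascl2 and Axin2. The mean went from 1.78 ± 0.33 to 0.10 ± 0.34, a 3.20-fold fall (95% interval 2.23 to 4.59, log2 SE 0.23, limma adjusted p = 0.00265), at chr14:80421398-80421457.

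Smoc2, a matrix protein gene, and Tnfrsf19, a TNF receptor family gene also called Troy, are both known from Lgr5-positive cells. Smoc2 read 4.82, 4.36, 4.87 and 5.15 on saline arrays 1 to 4, and 4.19, 4.47, 4.12 and 4.33 on doxycycline arrays 1 to 4. The highest doxycycline value lay above the lowest saline value, that of saline 2. The log2 difference was -0.52 (SE 0.19, 95% interval -0.96 to -0.09, exact permutation p = 0.0571, limma adjusted p = 0.102) at chr17:14541664-14541723. It passed without saline 2 (-0.67, adjusted p = 0.0393) and with array weights (adjusted p = 0.0332). Tnfrsf19 read 0.20, -0.06, -0.15 and 0.46 on saline arrays 1 to 4, and -0.75, -0.34, -1.18 and -0.22 on doxycycline arrays 1 to 4. Its groups did not overlap, with -0.22 just under -0.15. The log2 difference was -0.74 (SE 0.24, 95% interval -1.29 to -0.18, exact permutation p = 0.0286, limma adjusted p = 0.0770) at chr14:61582873-61582932. It passed with array weights (adjusted p = 0.0438) and with no filter on dim probes (adjusted p = 0.0465). The other Tnfrsf19 probe (chr14:61589667-61589726) reached that level on 3 doxycycline arrays and 0 saline arrays and was not tested.

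Lrig1 encodes a membrane protein that restrains ErbB receptors and marks stem and early progenitor cells. Lrig1 read 2.50, 2.27, 2.49 and 2.88 on saline arrays 1 to 4, and 2.49, 2.62, 2.63 and 2.78 on doxycycline arrays 1 to 4. The doxycycline values lay inside the saline range. The log2 difference was 0.09 (SE 0.17, 95% interval -0.28 to 0.47, exact permutation p = 0.514, limma adjusted p = 0.740) at chr6:94554523-94554582, and 0.03 (limma adjusted p = 0.940) at its second probe, chr6:94554811-94554870.

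**Figure D2:**
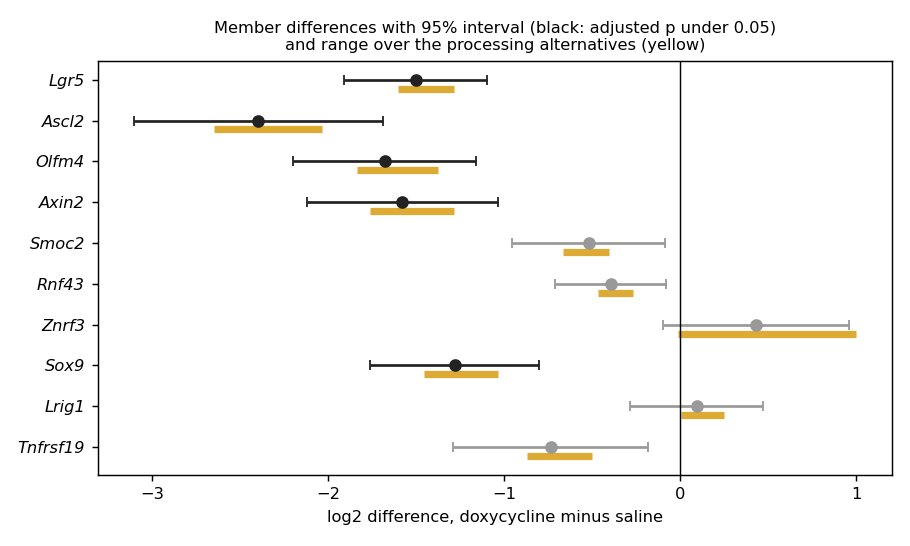
Log2 difference, doxycycline minus saline (horizontal axis), for each gene with its 95% interval (points and whiskers, black where adjusted p was under 0.05, grey otherwise) and the range over the processing alternatives (yellow bars). Lgr5, Ascl2, Olfm4, Axin2 and Sox9 stay between -2.65 and -1.04 over the alternatives, and Znrf3 reaches from -0.01 with normexp background to 1.00 with quantile normalization.

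The responses were set against that of Lgr5 by taking, on each array, the log2 level of the other gene minus that of Lgr5. Over 9 such pairs, with an exact two-sided permutation test and Benjamini-Hochberg adjustment, 0 pairs passed 0.05 (4 had an unadjusted p of 0.0286). That p is the smallest that 4 against 4 arrays allow, and 4 pairs at it give an adjusted p of 0.0643. The adjusted test therefore could not pass these 4 pairs, whatever the size of their differences. The difference from Lgr5 in log2 response was 1.11 (0.69 to 1.52, adjusted p = 0.0643) for Rnf43, 0.98 (0.51 to 1.46, adjusted p = 0.0643) for Smoc2 and 1.60 (1.09 to 2.10, adjusted p = 0.0643) for Lrig1, with 95% intervals in parentheses and groups that did not overlap. The pair with Znrf3 rests on saline values that were not well above background. Olfm4 differed from Lgr5 by -0.18 (-0.87 to 0.52, adjusted p = 0.675), Axin2 by -0.08 (-0.74 to 0.58, adjusted p = 0.771) and Sox9 by 0.22 (-0.27 to 0.71, adjusted p = 0.294), intervals that leave room for differences of either sign. Ascl2 minus Lgr5 was -0.89 (-1.69 to -0.10, adjusted p = 0.0857) and Tnfrsf19 minus Lgr5 0.77 (0.19 to 1.34, adjusted p = 0.0857), both with overlapping groups.

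The mean deviation of the 5 genes that fell from their saline means was -1.60, -1.39, -1.96 and -1.81 on doxycycline arrays 1 to 4. On saline arrays 1 to 4 it was 0.10, -0.27, 0.15 and 0.02. Doxycycline 3 was the lowest array of its group for 5 of 10 genes and saline 2 for 7 of 10. Leaving out any 1 array kept the calls of Lgr5, Ascl2, Olfm4, Axin2 and Sox9.

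**Figure D3:**
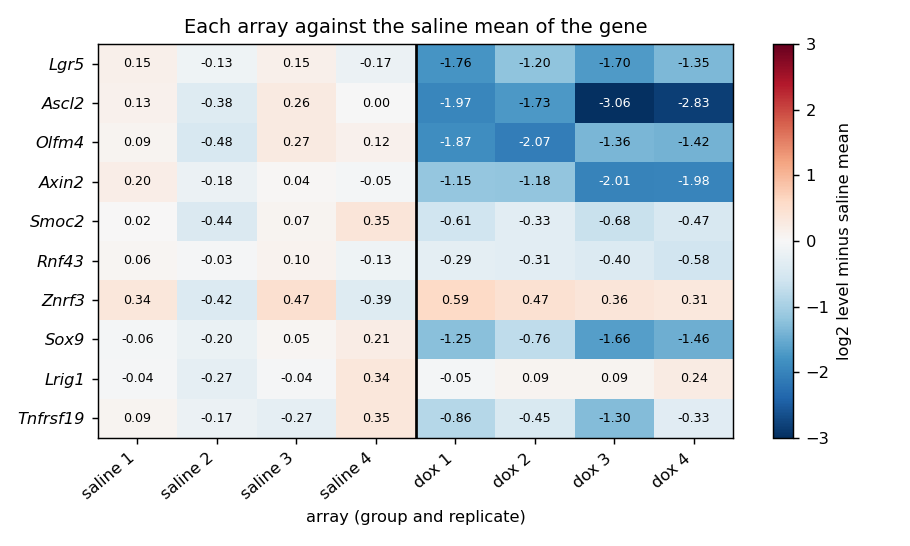
Log2 level of each gene (rows) on each array (columns) minus the mean of the 4 saline arrays, in colour and as a number, with blue for lower. The doxycycline columns are blue for the 5 genes that fell. Olfm4 is lowest on doxycycline 1 and 2, where Ascl2 and Axin2 are highest among the doxycycline arrays.

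Likeness to Lgr5 was described by Pearson r over the 8 arrays after the mean of each group was taken out, with no test, since these arrays share 1 slide and each value shares its array's scaling. Znrf3 was set aside because its saline values were not well above background. The other 8 genes had r between 0.01 for Olfm4 and 0.45 for Tnfrsf19, with Sox9 at 0.44 and Ascl2 at 0.38. Among all genes, 54.3% had a lower r than Olfm4 and 87.9% a lower r than Tnfrsf19. The 5 genes most like Lgr5 outside the list were the collagen genes Col6a2 (r = 0.99) and Col6a3 (r = 0.97), then Dbn1 (0.96), Ankrd46 (0.96) and Tmem178 (0.95). These are the highest of many r values over 8 arrays, and values this high can come from that choice alone. Ankrd46 and Tmem178 also fell with doxycycline (log2 differences -0.99 and -1.26, limma adjusted p = 0.00393 and 0.00791). The other 3 did not pass: Col6a2 had a log2 difference of 0.67, opposite in sign to Lgr5 (adjusted p = 0.170), Col6a3 one of -0.86 (adjusted p = 0.0961) and Dbn1 one of -0.20 (adjusted p = 0.556).

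Of 19 tested Wnt target genes outside the list, 0 rose and 0 fell in limma (1 lower and 2 higher at an unadjusted p under 0.05), with a median log2 difference of -0.17. Over all genes tested, 7.90% fell and 5.94% rose (16.8% lower and 14.6% higher at an unadjusted p under 0.05). The cyclin gene Ccnd1 had a log2 difference of -0.92 (SE 0.28, adjusted p = 0.0569) and the ephrin receptor gene Ephb2 one of 0.33 (SE 0.15, adjusted p = 0.173). Lef1 and Tcf7, TCF family genes that lymphocytes also express, had 2.51 (SE 0.81, adjusted p = 0.0720), with 2 of 4 saline arrays well above background, and 1.23 (SE 0.48, adjusted p = 0.120). Among feedback genes named after their values were seen, Notum had -0.25 (SE 0.18, adjusted p = 0.391), Nkd1 -0.30 (SE 0.25, adjusted p = 0.448) and Sp5 -0.34 (SE 0.28, adjusted p = 0.440). Rises numbered 1 without saline 2 and 2 without doxycycline 1, and falls numbered 1 without saline 2.

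Of 27 tested genes of Wnt and R-spondin reception and transduction, 1 fell and 0 rose (6 lower and 0 higher at an unadjusted p under 0.05), with a median of -0.20. The share that fell was 3.70% of this list, against 7.90% of all genes tested. The gene that fell was Lgr4, the widely expressed relative of Lgr5. Lgr4 read 0.41, 0.36, 0.47 and 0.94 on saline arrays 1 to 4 and -0.32, -0.13, 0.13 and -0.07 on doxycycline arrays 1 to 4, a fall of 1.56-fold (log2 SE 0.18, adjusted p = 0.0465). Its groups did not overlap, yet the falls in this list numbered 0 without doxycycline 1, doxycycline 2, doxycycline 3, doxycycline 4, saline 1, saline 2 or saline 4. The beta-catenin gene Ctnnb1 (-0.39, adjusted p = 0.108), the inhibitor gene Ctnnbip1 (-0.50, adjusted p = 0.0710) and the R-spondin gene Rspo1 (-0.94, adjusted p = 0.113) did not pass.

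Of 33 other tested genes reported in Lgr5-positive crypt cells, 5 fell and 5 rose (11 lower and 6 higher at an unadjusted p under 0.05), with a median of -0.32. The falls and the rises each made up 15.2% of this list, against 7.90% and 5.94% of all genes tested. The vitamin D receptor gene Vdr fell 2.98-fold (log2 SE 0.18, adjusted p = 0.00103). Rnf32 fell 4.10-fold (log2 SE 0.43, adjusted p = 0.0173), with 3 arrays of each group well above background. All its doxycycline values, -4.78 to -2.97, were below the common floor for dim values, -2.57, so part of its fall lies under that floor. Ifitm3, which interferon induces in many cells, rose 3.57-fold (log2 SE 0.22, adjusted p = 0.00138), and Shmt1, an enzyme of one-carbon metabolism, rose 1.81-fold (log2 SE 0.15, adjusted p = 0.00822). The other falls were those of Kcne3 (-0.96), Prom1 (-0.91) and Cdca7 (-0.88), as log2 differences. The other rises were those of Phlda1 (1.13), Igfbp4 (0.63) and Cdk6. Cdk6 was well above background on 0 saline arrays and so passed the filter through its doxycycline values alone. No fold is given for it, and 4 rises are left without it. It is also among the 6 higher at an unadjusted p under 0.05. Falls numbered 1 without doxycycline 3, saline 1 or saline 3 and 3 without doxycycline 4, and 3 with a common floor for dim values. Rises numbered 2 without doxycycline 3 and 3 without doxycycline 2, doxycycline 4, saline 2 or saline 3.

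Of 34 tested cell cycle genes, 0 fell and 1 rose in limma (0 lower and 4 higher at an unadjusted p under 0.05), with a median of 0.30. The share that rose was 2.94% of this list, against 5.94% of all genes tested. The ribonucleotide reductase gene Rrm2, which supplies DNA precursors, rose 2.25-fold (log2 SE 0.27, adjusted p = 0.0227), with saline 4 at 4.16 closest to the doxycycline arrays. The replication genes Gins2 (0.41, adjusted p = 0.0964) and Cdc6 (0.41, adjusted p = 0.144) did not pass. Aurkb, 1 of the 4 higher at an unadjusted p under 0.05, was well above background on 0 saline arrays. It passed the filter through its doxycycline values alone, and it is in the median too. Mki67 and Top2a, classic markers of dividing cells named after their values were seen, had log2 differences of 0.01 (SE 0.26, adjusted p = 0.988) and 0.32 (SE 0.21, adjusted p = 0.330). The summed level of the list was 363 to 453 with doxycycline and 257 to 535 with saline, with saline 2 lowest and saline 4 highest of all arrays. Rises numbered 0 without doxycycline 2, doxycycline 3, saline 1 or saline 3 and 2 without doxycycline 1 and 6 without saline 4.

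Of 13 tested genes of reserve and regenerating crypt cells, 7 rose and 1 fell (1 lower and 8 higher at an unadjusted p under 0.05), with a median of 1.11. The rises made up 53.8% and the fall 7.69% of this list, against 5.94% and 7.90% of all genes tested. The growth factor ligand genes Areg and Ereg, both of the EGF family, rose 10.6-fold (log2 SE 0.18, adjusted p = 9.19e-05) and 2.62-fold (log2 SE 0.22, adjusted p = 0.00499). Ly6a, which encodes Sca-1 and also responds to interferon, rose 8.13-fold (log2 SE 0.29, adjusted p = 5.70e-04), and the annexin gene Anxa3 2.16-fold (log2 SE 0.24, adjusted p = 0.0190). The other rises were those of Anxa1 (1.04), Il33 (1.21) and the telomerase gene Tert, at least 1.77-fold higher. Tert was well above background on 0 saline arrays and passed the filter through its doxycycline values alone, and 6 rises are left without it. It is also among the 8 higher at an unadjusted p under 0.05. Keratin 19 (Krt19) was the fall, by 1.53-fold (log2 SE 0.15, adjusted p = 0.0262). Of the genes held to mark quiescent cells, named after their values were seen, Bmi1 had 0.22 (SE 0.23, adjusted p = 0.552) and Hopx -0.08 (SE 0.20, adjusted p = 0.817). Rises numbered 4 without saline 1 or saline 3, and 4 with a common floor, and falls numbered 0 without doxycycline 3, doxycycline 4, saline 1 or saline 3.

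Of 16 tested Notch and growth factor niche genes, 2 fell and 0 rose (5 lower and 1 higher at an unadjusted p under 0.05), with a median of -0.27. The share that fell was 12.5% of this list, against 7.90% of all genes tested. The receptor gene Erbb2 fell 2.46-fold (log2 SE 0.22, adjusted p = 0.00692) and the ligand gene Wnt6 2.33-fold (log2 SE 0.24, adjusted p = 0.0139). All doxycycline values of Wnt6, -4.23 to -3.27, were dimmer than the lowest saline signals well above background. Its fall was lost with a common floor (log2 difference -0.18, adjusted p = 0.252) and with the replicate block (adjusted p = 0.0510), which left 1 fall in the list. Wnt3, the Wnt ligand that Paneth cells supply, had -1.38 (SE 0.40, adjusted p = 0.0533), with 3 saline arrays well above background. All doxycycline values of Wnt3, -3.58 to -2.69, were below the common floor, -2.57. The Notch target Hes1 had -2.71 (SE 0.81, adjusted p = 0.0571), with doxycycline values spread from -4.61 to -0.40. Falls numbered 4 without doxycycline 1 or doxycycline 2, and rises numbered 1 without doxycycline 1.

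**Figure D4:**
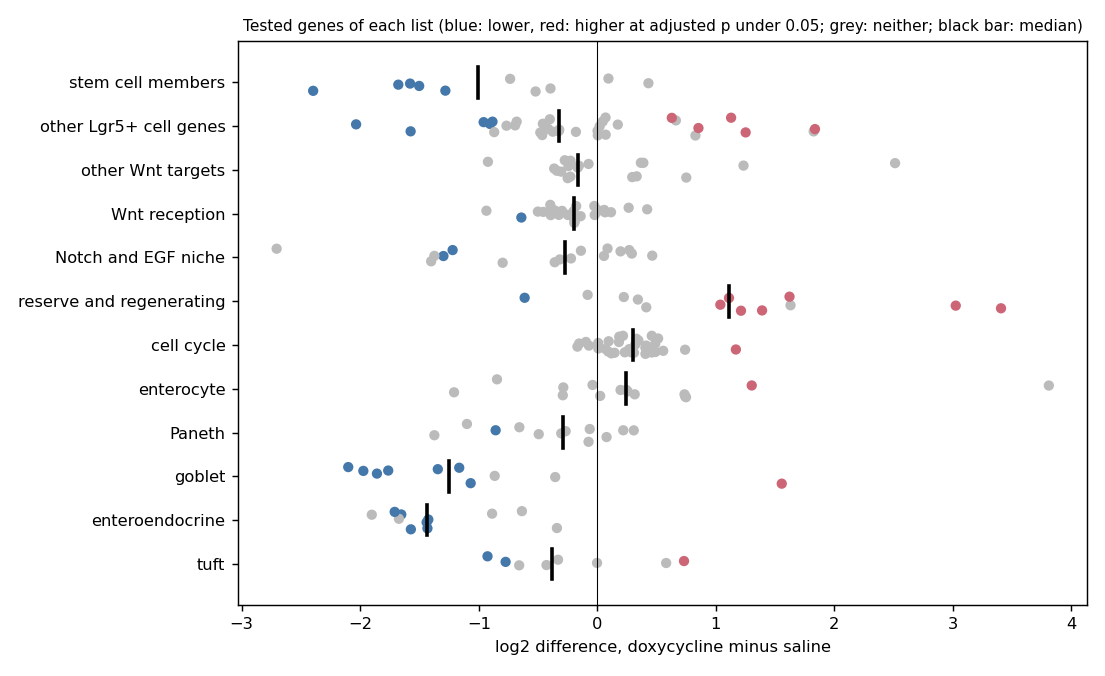
Log2 difference, doxycycline minus saline (horizontal axis), of every tested gene in each list (rows), in blue where called lower, in red where called higher and in grey otherwise, with the list's median as a black bar. The 10 genes and the goblet and enteroendocrine lists have medians of -1.01, -1.26 and -1.44, and the reserve and regenerating list has its median at 1.11.

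Markers of other cell types were read on the same arrays. Over all genes tested, 7.90% fell and 5.94% rose (16.8% lower and 14.6% higher at an unadjusted p under 0.05), the shares to set beside the counts below. In the goblet cell list, 7 of 10 tested markers fell and 1 rose, and the summed level was 730 to 1039 with doxycycline and 1693 to 2131 with saline. The trefoil peptide gene Tff3 fell 2.24-fold (log2 SE 0.14, adjusted p = 0.00150), while Zg16, with a log2 difference of -0.87 (SE 0.38, adjusted p = 0.159), did not pass. In the enteroendocrine list, 6 of 11 fell and 0 rose, with sums of 59.7 to 102 with doxycycline and 184 to 212 with saline. The secretin gene Sct fell 2.98-fold (log2 SE 0.24, adjusted p = 0.00425), and Tac1 had -0.89 (SE 0.66, adjusted p = 0.399). Paneth cells, which share Sox9 and sit between the stem cells, had overlapping sums of 1257 to 2030 with doxycycline and 1457 to 1913 with saline. Of 12 tested Paneth markers, 1 fell, Mptx1 (1.81-fold (log2 SE 0.22, adjusted p = 0.0360), named after its value was seen), and 0 rose (4 lower and 0 higher at an unadjusted p under 0.05), and falls numbered 0 without doxycycline 1, doxycycline 3, doxycycline 4, saline 1 or saline 3 and 3 without saline 4. Their product Reg3g had a log2 difference of -0.06 (SE 0.23, adjusted p = 0.878). Enterocyte sums were 959 to 1490 with doxycycline and 711 to 1225 with saline, and 1 of 15 markers rose (Apob). Smooth muscle sums were 514 to 698 with doxycycline and 494 to 1103 with saline, and 0 of 10 markers passed (3 lower and 0 higher at an unadjusted p under 0.05). Stromal sums were 132 to 190 with doxycycline and 123 to 179 with saline, and 2 of 12 markers rose, Pdgfra by 2.36-fold (log2 SE 0.27, adjusted p = 0.0182) and Pdgfrb by 1.76-fold (log2 SE 0.23, adjusted p = 0.0497). Endothelial sums were 24.8 to 29.8 with doxycycline and 16.4 to 21.9 with saline and did not overlap, and 4 of 9 markers rose (Tie1, Eng, Lyve1 and Esam), with log2 differences of 0.59 to 1.78. Leukocyte sums were 105 to 182 with doxycycline and 52.9 to 155 with saline, and of 17 markers 2 rose (S100a9 and S100a8, the latter well above background on 0 saline arrays) and 1 fell (Adgre1). Tuft cell sums were 11.0 to 18.7 with doxycycline and 11.6 to 20.6 with saline, and of 8 markers 2 fell (Dclk1 and Trpm5) and 1 rose (Ptgs1). Apart from Ptgs1, the genes of these 5 lists with calls were named after their values were seen. Leaving out 1 array gave 0 to 2 enterocyte, 0 to 2 stromal, 2 to 5 endothelial and 0 to 7 leukocyte rises, 0 to 1 leukocyte falls, and 0 to 2 falls and 0 to 1 rises of tuft markers. The array whose omission gave 7 leukocyte rises was saline 2, and without any 1 of doxycycline 2 to 4 or saline 1 to 3 the tuft falls numbered 0. With doxycycline, where the stem cell genes fell, the goblet and enteroendocrine sums were lower and the endothelial sum was higher. The part of these cell types in those falls was not tested.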

How the data were processed

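Spot intensity, linear, was deposited as scanner output of Agilent Feature Extraction (10.7.3.1), whose headers show spatial and multiplicative detrending and surrogate values for dim spots switched on. The authors' deposited log2 table equals log2 processed intensity minus a constant per array (column medians -3.97 to -3.70), in the same direction and without centring of genes, and served as an alternative. Labelling used 200 ng of RNA, per the labels. Control spots were dropped, as were 169 to 259 outlier spots on each array, and a probe took the mean of its spots, scaled to the 75th percentile over probes. Probes kept numbered 28626, and each gene took its kept probe of highest mean. The fit was limma 3.58.1 (R 4.3.3, lmFit and eBayes, Benjamini-Hochberg over all genes tested), tested on simulated data. Second probes were read from a fit over all kept probes. Having 4 arrays per group limits precision. "At least" folds set the bright mean against the lowest signal well above background. The members and lists were chosen with earlier results of these data known. Named genes were the members, up to 4 of smallest p per pathway list, up to 2 of highest mean per marker list, and the 5 most like Lgr5 (clone and predicted names left out). Alternatives were normexp (offset 50), quantile normalization, a common floor, no filter, a filter on all 8 arrays, the mean of probes, a replicate block, array weights, the deposited table and leaving out each array. A marker gene that this rule names is not reported here. Exons and untranslated regions were not analysed here.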

Additional observations from a re-analysis of the deposited data

How the results depend on the processing

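Lgr5, Ascl2, Olfm4, Axin2 and Sox9 kept direction and call under all 17 alternatives (highest limma adjusted p 0.0358), with log2 differences of -1.61 to -1.28 for Lgr5, -2.65 to -2.04 for Ascl2, -1.84 to -1.38 for Olfm4, -1.77 to -1.29 for Axin2, -1.46 to -1.04 for Sox9. Leaving out 1 array gave 5 to 6 falls among the 10 genes, and array weights gave 8, adding Smoc2, Rnf43 and Tnfrsf19. Znrf3 turned to -0.011 with normexp background. Replicate numbers shared by the groups are not said to pair the samples. Deviations of same-numbered arrays correlated at 0.01, -0.06, 0.10 and 0.02, and only doxycycline 3 correlated best with its own number. These correlations cannot exclude a pairing. With the replicate block the members still held 5 falls, Wnt reception 0 falls, niche genes 1 fall and reserve genes 0 falls. Cell cycle genes then had 0 rises, and all genes 905 lower and 787 higher, against 1687 and 1268.

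Normexp background gave 1 fall of Wnt targets, 2 of Wnt reception and 4 of niche genes. Quantile normalization gave 0 falls of reserve genes. A common floor gave 3 falls of Wnt reception, 3 of Lgr5-positive cell genes and 1 of niche genes, with 4 rises of reserve and 2 of cell cycle genes. No filter gave 5 falls and 1 rise of Wnt targets, 4 falls of Wnt reception and 5 of niche genes, with 11809 lower and 1850 higher in all. The filter on all 8 arrays gave 1 fall of Wnt targets. Array weights gave 1 fall and 2 rises of Wnt targets, 3 falls of Wnt reception, 9 of Lgr5-positive cell genes, 6 falls and 1 rise of niche genes and 11 rises of cell cycle genes, with 3400 lower and 2929 higher in all. Leaving out 1 array gave 0 to 1 falls and 0 to 2 rises of Wnt targets, 0 to 1 falls of Wnt reception, 1 to 6 falls and 2 to 6 rises of Lgr5-positive cell genes, 4 to 7 rises and 0 to 1 falls of reserve genes, 0 to 6 rises of cell cycle genes, and 2 to 4 falls and 0 to 1 rises of niche genes. Over all genes it gave 729 to 1870 falls and 648 to 1541 rises. The cause of these changes was not tested. Genes near background on the saline arrays, such as Znrf3, are limited by signal.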
